A study of Mus musculus with 12 samples.

Results

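The 7 ligand genes Cd80, Cd86, Cd274, Icosl, Cd40, Cd83 and Cd48 were taken by name from 561 genes of the nCounter Mouse Immunology v1 panel, which counts RNA molecules with barcoded probes, and all 7 were found there. They encode surface proteins through which antigen-presenting cells adjust T cell and NK cell responses. The samples were Ter-119+ erythroid cells, selected on magnetic beads from the spleens of mice, with RNA of 500000 cells per sample. The animals were adult males aged 3 to 5 months, of the F1 cross CBA x C57BL/6. Mice had acute hypoxia (16 h in a hypobaric chamber at -46 kPa, an altitude above 4500 m), acute blood loss (0.5 to 0.8 mL drawn from the retro-orbital sinus under isoflurane) or standard housing (normal), and all spleens were taken on day 3. The fit used 4 hypoxia, 4 blood loss and 3 normal samples, since the column Normal 4 holds values derived from the other normal columns. Because the labels tie no sample to an animal, p-values here rest on sample-to-sample spread, part of which may be technical.

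A naive T cell needs a signal from its antigen receptor and a second, costimulatory signal from the presenting cell. CD80 and CD86 give that signal through CD28, and both also bind the inhibitory receptor CTLA-4. PD-L1, the product of Cd274, restrains T cells through PD-1. ICOS ligand, the product of Icosl, binds ICOS on activated T cells. CD40 stands on the presenting cell, where it receives CD40 ligand from T cells and signals through TRAF proteins and NF-kappaB. CD83 is a marker of mature dendritic cells and activated B cells. CD48, a protein of the SLAM family found on most leukocytes, binds CD244 and, in the mouse, CD2. In the spleen these molecules are best known from B cells, dendritic cells and macrophages. The series' title concerns transcripts of antigen-presenting cells in erythroid cells that carry CD45.

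Promoter sequence is shown for the members that changed in at least 1 comparison and have a window in the RefSeq table (build GRCm38.p6), which matched 4 of the 7 genes by symbol (Cd80, Cd274, Icosl and Cd48). Each line gives the 250 bases before the listed transcript start, plus strand, 5′ to 3′. The windows are chr16:38458683-38458932 for Cd80, chr19:29367188-29367437 for Cd274, chr10:78069118-78069367 for Icosl and chr1:171681742-171681991 for Cd48. Capitals mark matches on either strand to a loose NF-kappaB motif, to a motif of the interferon response element or to the GATA motifs AGATAA and TGATAA.
Cd80: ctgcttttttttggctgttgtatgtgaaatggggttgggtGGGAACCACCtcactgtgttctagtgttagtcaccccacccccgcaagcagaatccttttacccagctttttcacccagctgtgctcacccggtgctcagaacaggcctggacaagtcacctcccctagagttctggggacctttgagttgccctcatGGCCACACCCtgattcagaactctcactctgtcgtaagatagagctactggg
Cd274: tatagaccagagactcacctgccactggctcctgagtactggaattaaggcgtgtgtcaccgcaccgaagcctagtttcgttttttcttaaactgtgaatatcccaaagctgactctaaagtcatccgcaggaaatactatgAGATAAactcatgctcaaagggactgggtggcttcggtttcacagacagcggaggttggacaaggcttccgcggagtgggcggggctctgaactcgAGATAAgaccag
Icosl: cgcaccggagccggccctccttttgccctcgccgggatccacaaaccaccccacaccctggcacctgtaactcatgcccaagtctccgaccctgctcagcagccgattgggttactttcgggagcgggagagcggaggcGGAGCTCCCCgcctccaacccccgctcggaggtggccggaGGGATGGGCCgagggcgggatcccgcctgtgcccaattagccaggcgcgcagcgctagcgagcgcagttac
Cd48: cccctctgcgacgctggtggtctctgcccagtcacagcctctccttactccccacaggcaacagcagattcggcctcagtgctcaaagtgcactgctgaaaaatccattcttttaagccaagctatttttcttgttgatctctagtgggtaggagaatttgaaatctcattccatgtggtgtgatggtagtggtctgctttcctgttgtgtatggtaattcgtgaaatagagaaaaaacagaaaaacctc
The loose NF-kappaB motif matched in 2 places in Cd80, at positions -210 to -201 and -52 to -43 before the start, and in 2 places in Icosl, at -111 to -102 and -71 to -62, and 45.4% of 27025 promoter windows of the same length held it. AGATAA matched in 2 places in Cd274, at positions -108 to -103 and -12 to -7 before the start, and 17.0% of windows held a GATA motif. The interferon response element, present in 3.04% of windows, matched in none of the 4. No match of any of the motifs lay in the Cd48 window. No matches of different motifs overlapped. A match is a description of these letters only.

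Total raw counts ran from 44254 to 81370 in hypoxia samples, from 7016 to 31006 in blood loss samples and from 43956 to 253712 in normal samples. Levels below are housekeeping-scaled counts: raw counts divided by the geometric mean of 6 housekeeping genes in the sample (scaled to a geometric mean of 1 over samples). Those 6 were not steady themselves. After scaling, Eef1g averaged 631 in hypoxia, 347 in blood loss and 661 in normal samples, and Polr2a 236, 388 and 203 in the same order. Rpl19 was unsteady within the normal group, with raw counts of 2023, 1459 and 6324 in normal samples 1 to 3. The total counts of these samples were 43956, 161054 and 253712. Ligand calls without Rpl19 are given below. Each gene is read by its own probes, so levels are not compared between genes. A gene was called at an adjusted p under 0.05 (edgeR quasi-likelihood test, Benjamini-Hochberg over 252 tested genes). All 7 ligands passed the filter for testing, a raw count of 20 or more in at least 4 samples. Ptprc, which encodes CD45, averaged 281 ± 26.9 in hypoxia samples, 330.2 ± 97.4 in blood loss samples (SD, n = 4 each) and 517 ± 61.3 in normal samples (SD, n = 3). It was called lower after hypoxia (log2 fold change -0.88, edgeR adjusted p = 0.0124) but not after blood loss (-0.65, edgeR adjusted p = 0.0811).

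Transcripts that mark leukocytes were counted in every group beside those of erythroid cells. Of 12 erythroid markers 5 were measured (Tfrc, Tal1, Kit, Cd36 and Cd55), and their summed scaled count ran from 470.3 to 1089 in hypoxia, 542 to 986 in blood loss and 384 to 690.0 in normal samples. That sum joins genes that moved in opposite directions: of the 4 erythroid markers tested, 3 were called higher and 1 lower in each comparison with normal (edgeR). Of all tested genes 9.92% were called higher and 17.1% lower after blood loss, and 7.54% and 32.9% after hypoxia. Tfrc, the transferrin receptor, ran from 184 to 642 in hypoxia and 232 to 507 in blood loss samples, against 116 to 143 in normal samples. Cd36 ran from 91.1 to 227 and from 137 to 267, against 52.0 to 83.5, and Tal1, a transcription factor of blood cell formation, was higher as well, from raw counts that were low in normal samples. Cd55, a complement regulator, ran lower, from 121 to 195 and from 140.0 to 185, against 199 to 458. The summed level of 13 of 16 B cell markers ran from 1639 to 2484, from 1676 to 2811 and from 2314 to 4711 in the same order. For 5 of 10 dendritic cell markers these ranges were 886 to 1566, 912 to 1558 and 1415 to 1919. For 9 of 12 macrophage and monocyte markers they were 35.9 to 87.6, 125 to 185 and 221 to 318. For 17 of 19 T and NK cell markers they were 182 to 322, 268 to 415 and 483 to 748, and for 7 of 10 granulocyte markers 1649.5 to 3801, 3062 to 7046 and 1769.7 to 2407. For 2 of 5 platelet markers they were 6.203 to 12.9, 6.15 to 37.1 and 4.52 to 7.09. The dendritic cell sum was mostly Ccr7, at 712 to 1191 after hypoxia, 744 to 1288 after blood loss and 1092 to 1425 in normal samples. Of its 5 markers 3 stayed under a raw count of 20 in every treated sample. No marker had a count of 0 in any sample, since the lowest raw count deposited is 1. Scaled, a raw count of 1 was 7.42 in blood loss 3 and 0.162 in normal 3. After blood loss raw counts stayed under 20 in every sample for 9 of the 9 macrophage and monocyte markers. The same held for 13 of the 17 T and NK markers and 2 of the 2 platelet markers. After hypoxia these numbers were 8, 6 and 2. These sums thus rest largely on low counts after blood loss, where small library factors enlarge them. The granulocyte sum was mostly S100a8 and S100a9, and 4 of its 7 markers stayed under 20 in every treated sample. Cxcr2, 1 of these 4, lay lower after hypoxia, at scaled counts of 0.571 to 1.69 against 3.39 to 16.6 in normal samples. Of the 3 granulocyte markers tested, 2 were called higher after blood loss and 1 after hypoxia, and 0 lower (edgeR). In such bulk samples fewer cells of a type and less RNA per cell cannot be told apart, and the part of these shifts in the ligand results was not tested.

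Cd86 was called higher than normal under both treatments in every alternative run. Its scaled counts were 137, 116, 97.6 and 56.8 in hypoxia samples 1 to 4, and 86.1, 137, 245 and 129 in blood loss samples 1 to 4, against 55.4, 44.1 and 33.3 in normal samples 1 to 3. The 8 treated samples all lay above all normal samples, though hypoxia 4 exceeded normal 1 only narrowly. Cd86 rose 3.29-fold after blood loss (log2 fold change 1.72, SE 0.36, edgeR adjusted p = 0.00103) and 2.34-fold after hypoxia (log2 fold change 1.23, SE 0.34, edgeR adjusted p = 0.00499). Over the 252 tested genes, the median log2 fold change was -0.24 after blood loss and -0.49 after hypoxia. Relative to that median, Cd86 stood 1.89 to 1.96 higher after blood loss and 1.71 to 1.75 higher after hypoxia under 6 library scalings. Its call was also kept in all 11 fits that left out 1 sample, with adjusted p at most 0.0122 for blood loss and 0.0495 for hypoxia (edgeR).

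Cd80, which shares its receptors with Cd86, had low counts. Scaled, they were 9.65, 17.7, 14.8 and 19.7 after hypoxia and 52.3, 17.8, 51.9 and 22.5 after blood loss, against 13.6, 16.6 and 16.3 in normal samples. Blood loss samples 1 and 3 stood far above the rest, and blood loss 2 was close to the normal samples. The raw counts behind the blood loss values were 17, 7, 7 and 16, all under 20. Counting error alone gave blood loss 2 an exact 95% Poisson interval of 7.16 to 36.7 scaled counts, which takes in all normal values. Cd80 was called higher after blood loss by a narrow margin (log2 fold change 1.03, SE 0.39, edgeR adjusted p = 0.0486). That call was lost in 6 of 11 fits that left out 1 sample (each of the 3 normal samples, blood loss 1, blood loss 3 or hypoxia 3), with log2 fold changes from 0.70 to 1.09 there. It was also lost with 14 housekeeping genes (0.72) with the deposited size-factor method (0.67) and with background subtracted (0.93). After hypoxia Cd80 was not called (log2 fold change -0.03, 95% interval -0.74 to 0.68).

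**Figure D1:**
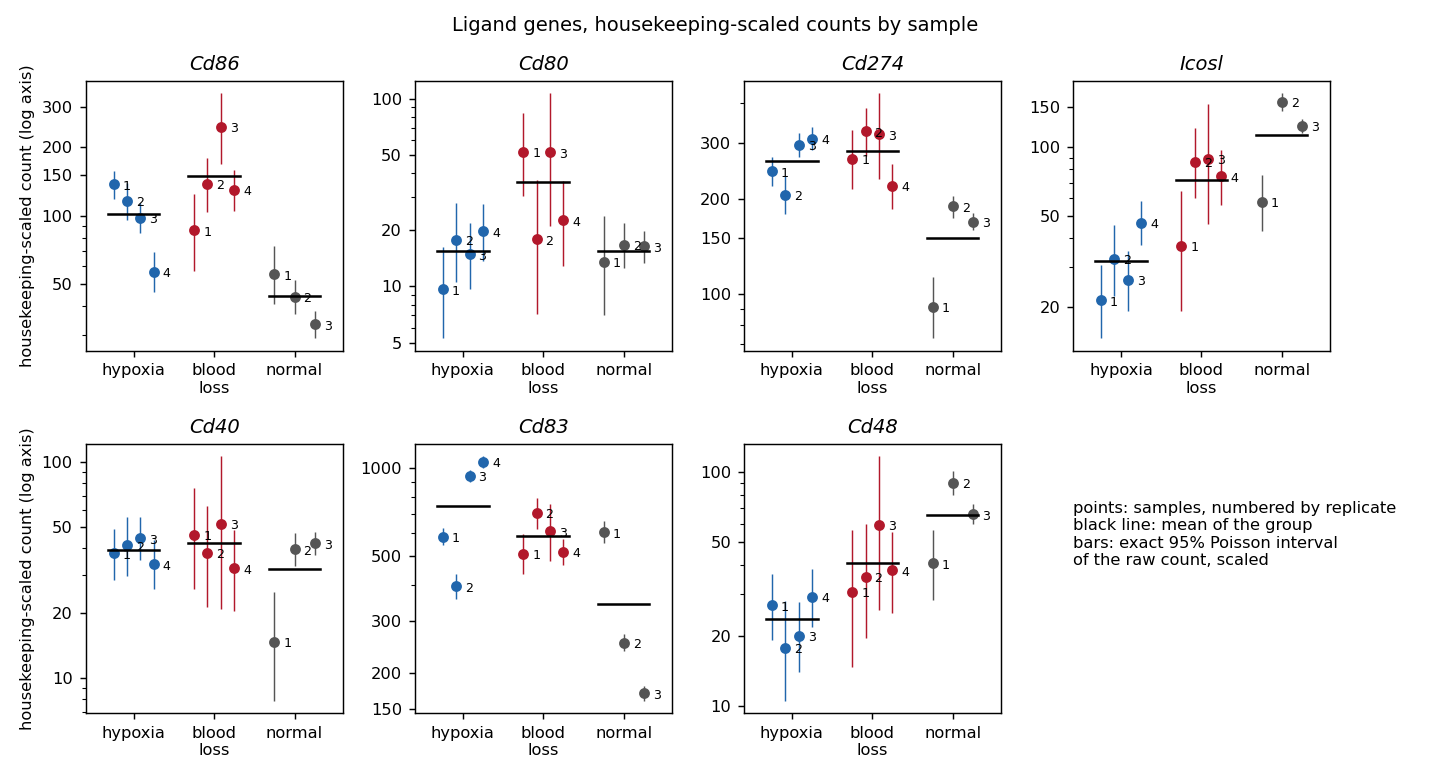
Housekeeping-scaled count (log axis) of each ligand gene in 4 hypoxia, 4 blood loss and 3 normal samples, numbered by replicate, with the group mean as a black line and the exact 95% Poisson interval of the raw count as bars. Cd86 and Cd274 are higher in all treated samples than in all normal samples, Icosl and Cd48 are lower in all hypoxia samples than in all normal samples, and normal 1 departs from normal 2 and normal 3 in Cd40, Cd274, Icosl, Cd83 and Cd48.

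Cd274 was higher after both treatments. In scaled counts it stood at 244, 206, 296 and 309 after hypoxia and 268, 326, 319 and 219 after blood loss, against 91.5, 189 and 169.6 in normal samples. The lowest treated sample, hypoxia 2, lay above the highest normal sample, and the 2 treated groups overlapped widely. Cd274 rose 1.85-fold after blood loss (log2 fold change 0.89, SE 0.30, edgeR adjusted p = 0.0289) and 1.74-fold after hypoxia (0.80, SE 0.29, edgeR adjusted p = 0.0281). The call after blood loss was also lost without normal 3 (0.98), blood loss 2 (0.80) or blood loss 3 (0.83), and the call after hypoxia without normal 3 (0.89), hypoxia 3 (0.74) or hypoxia 4 (0.71). The size also depends on normal 1, the lowest sample: without it the log2 fold changes were 0.64 (edgeR adjusted p = 0.0748) and 0.56 (edgeR adjusted p = 0.101). The call after hypoxia was made under all 6 scalings (log2 fold change 0.80 to 1.70). After blood loss it was lost with 14 housekeeping genes (0.63) and with the deposited size-factor method (0.49).

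Icosl stood lowest after hypoxia. Samples had scaled counts of 21.4, 32.5, 26.2 and 46.7 after hypoxia and 36.9, 86.5, 89.0 and 74.5 after blood loss, against 57.6, 158 and 124 in normal samples. All hypoxia samples lay below all normal samples, while normal 1 lay inside the range of the blood loss samples. Icosl fell after hypoxia (log2 fold change -1.85, SE 0.35, edgeR adjusted p = 0.000180), a call made under all 6 scalings (-1.85 to -0.95) and in all 11 fits without 1 sample. After blood loss it was not called (log2 fold change -0.70, 95% interval -1.45 to 0.05, edgeR adjusted p = 0.145). Without normal 1 it was called lower there (-0.995, edgeR adjusted p = 0.0252).

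Cd40 was not called in any of the 3 comparisons with housekeeping scaling. Scaled counts of Cd40 were 37.9, 41.3, 44.5 and 33.8 after hypoxia and 46.1, 38.2, 51.9 and 32.3 after blood loss, against 14.7, 39.4 and 42.2 in normal samples. Normal 1 was the only sample outside 32.3 to 51.9. The log2 fold change was 0.22 after hypoxia (95% interval -0.38 to 0.81) and 0.24 after blood loss (95% interval -0.44 to 0.93). Raw counts after blood loss were 15, 15, 7 and 23.

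Cd83 had, relative to its mean, the widest spread of the 7 ligands among normal samples. Its scaled counts were 583, 394, 939.7 and 1051 after hypoxia and 511, 702, 608 and 519 after blood loss, against 605, 254 and 170.2 in normal samples. Normal 1 lay inside both treated groups, and normal 2 and normal 3 lay below every treated sample. Cd83 rose after hypoxia (log2 fold change 1.13, SE 0.40, edgeR adjusted p = 0.0247), under all 6 scalings. It was not called after blood loss (0.78, 95% interval -0.04 to 1.60, edgeR adjusted p = 0.138). Without normal 1 the values were 1.81 after hypoxia (edgeR adjusted p = 0.000393) and 1.46 after blood loss (edgeR adjusted p = 0.00471). The call after hypoxia was lost without normal 2 (0.95), normal 3 (0.80), hypoxia 3 (0.99) or hypoxia 4 (0.91), and when only the 2 groups compared were fitted (1.12, edgeR adjusted p = 0.0862).

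Cd48 moved much as Icosl did. Its scaled counts were 26.9, 17.7, 19.97 and 29.3 after hypoxia and 30.8, 35.6, 59.3 and 38.0 after blood loss, against 40.7, 89.99 and 65.96 in normal samples. All hypoxia samples lay below all blood loss and all normal samples. Blood loss 3 overlapped with normal 1. Cd48 fell after hypoxia (log2 fold change -1.49, SE 0.29, edgeR adjusted p = 0.000245) and the call was kept in all 11 fits without 1 sample. It was lost with Ptprc as library factor (-0.59, edgeR adjusted p = 0.0965). After blood loss it was not called (-0.79, 95% interval -1.46 to -0.12, edgeR adjusted p = 0.0688), and without normal 1 it was called lower (-1.02, edgeR adjusted p = 0.0127).

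**Figure D2:**
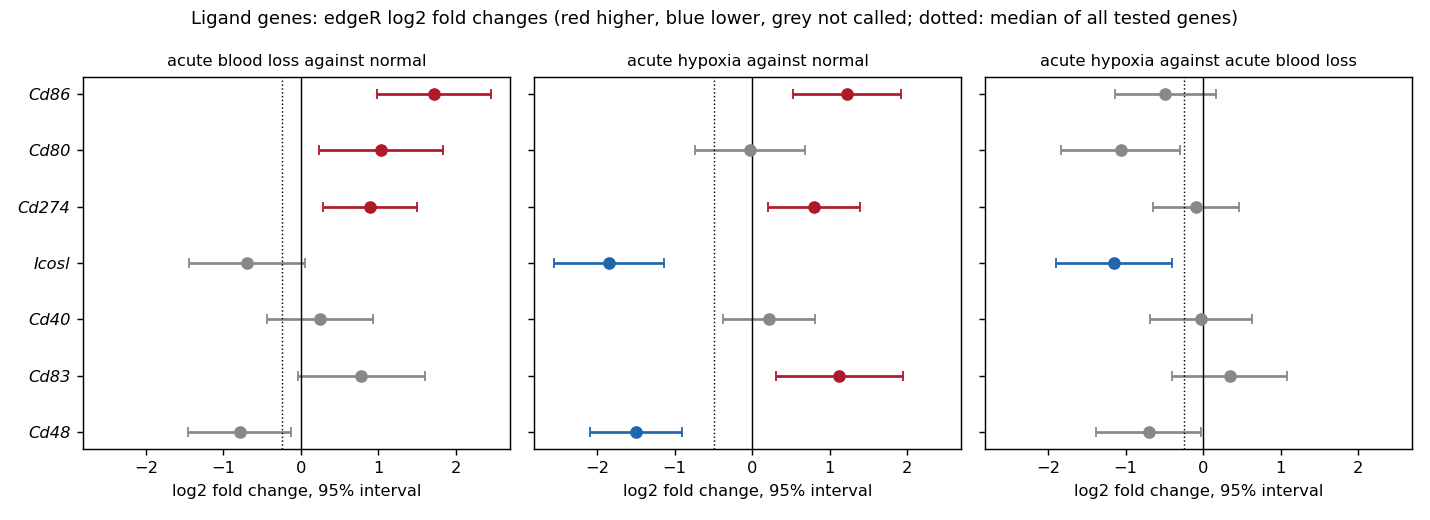
edgeR log2 fold changes of the 7 ligand genes with 95% intervals in 3 comparisons, red where called higher, blue where called lower and grey where not called, with a dotted line at the median of the 252 tested genes. Cd86 and Cd274 are called higher in both comparisons with normal, and Icosl and Cd48 are called lower after hypoxia.

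After acute blood loss 3 of the 7 ligands were called higher (Cd86, Cd80 and Cd274), 0 were called lower (edgeR; 1, Cd48, at an unadjusted p under 0.05, and 0 with DESeq2) and 4 were not called. Of all 252 tested genes 9.92% were called higher and 17.1% lower. At an unadjusted p under 0.05 (edgeR), in either direction, were 103 of the 252 and 4 of the 7 ligands. The median log2 fold change was 0.78 over the 7 ligands and -0.24 over all tested genes. In scaled counts the groups did not overlap, in the higher direction, for the same 3 ligands and for 11.5% of tested genes. One ligand, Cd86, was called higher and 2, Icosl and Cd48, lower with 14 housekeeping genes, where 5.56% of tested genes were called higher and 33.7% lower. The deposited size-factor method gave the same member counts, against 5.16% of tested genes higher and 45.2% lower. Without normal 3 or without blood loss 3 Cd86 alone was called higher. These alternatives shift all genes: the median over tested genes was -0.51 with 14 housekeeping genes, -0.63 with the deposited method, 0.05 with TMM factors and 0.48 with Ptprc as factor. Relative to each of these medians Cd274 stood 1.12 to 1.14 higher, Cd80 1.24 to 1.34 higher, Icosl between -0.46 and -0.43 and Cd48 between -0.55 and -0.51.

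After acute hypoxia 3 of the 7 ligands were called higher (Cd86, Cd83 and Cd274) and 2 lower (Icosl and Cd48). Of all tested genes 7.54% were called higher and 32.9% lower. The lower share of the ligands, 2 of 7, is close to that of all tested genes. The median log2 fold change was 0.22 over the ligands and -0.49 over all tested genes. In scaled counts 2 ligands lay above and 2 below all normal samples, against 8.73% and 34.1% of tested genes. With TMM factors, where 21.8% of tested genes were called higher and 17.5% lower, the ligands had 4 higher calls and 2 lower ones, with Cd40 added (log2 fold change 0.78). The deposited method also called Cd40 higher (0.69). Only Cd86 was called higher without normal 3, without hypoxia 3 or without hypoxia 4, and the 2 lower calls were kept in every fit that left out 1 sample. Both treatments were compared with the same 3 normal samples.

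Between the treatments, 1 ligand was called lower after hypoxia than after blood loss and 0 higher (edgeR), against 8.33% and 0.397% of tested genes. In the higher direction 0 had an unadjusted p under 0.05 (edgeR) and 0 were called by DESeq2. In the lower direction 3 had an unadjusted p under 0.05 (edgeR): Icosl, Cd80 and Cd48. At that threshold, in either direction, were 64 of the 252 tested genes. The ligand called lower was Icosl, which averaged 31.7 ± 10.98 in hypoxia samples and 71.7 ± 24.1 in blood loss samples (SD, n = 4 each; log2 fold change -1.15, SE 0.36, edgeR adjusted p = 0.0472). The groups overlapped: blood loss 1 (36.9) lay below hypoxia 4 (46.7). The call of Icosl was made under none of the 5 other scalings (-1.07 to -0.30) and was lost in 6 of 11 fits without 1 sample: normal 3 (-1.15), blood loss 2 (-1.03), blood loss 3 (-1.08), blood loss 4 (-1.11), hypoxia 1 (-1.002) or hypoxia 3 (-1.07). Cd48 was the ligand whose scaled counts did not overlap between the treatments, as was so in the lower direction for 10.3% of tested genes, yet it was not called (log2 fold change -0.70, edgeR adjusted p = 0.174). The gap was narrow, from 29.3 in hypoxia 4 to 30.8 in blood loss 1, which rests on a raw count of 10. On the deposited scale and relative to Ptprc the treatments overlapped in Cd48. Cd80 stood at -1.07 (95% interval -1.84 to -0.29, edgeR adjusted p = 0.0672) and was called lower by DESeq2 (adjusted p = 0.0463). With the deposited size-factor method 3 ligands were called higher after hypoxia than after blood loss, Cd40 (0.82), Cd274 (0.80) and Cd83 (1.25), where 38.1% of tested genes were called higher.

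Ligand calls under the other library settings are read against the share of tested genes called under the same setting. With TMM factors 3 ligands were called higher and 0 lower after blood loss (15.5% and 12.7% of tested genes), and 0 in either direction between hypoxia and blood loss (2.78% higher and 4.37% lower). With the deposited method 4 were called higher and 2 lower after hypoxia (20.2% and 19.8%), and 0 lower between the treatments (0.397%). With 14 housekeeping genes 3 were called higher and 2 lower after hypoxia (7.94% and 25.8%), and 0 either way between the treatments (1.98% and 0.397%). Without Rpl19 among the housekeeping genes 3 were called higher and 0 lower after blood loss (11.1% and 15.5%), 3 higher and 2 lower after hypoxia (9.13% and 27.4%), and 0 either way between the treatments (1.59% and 5.95%). With Ptprc as factor 5 were called higher and 0 lower after blood loss (32.7% and 4.38%), 4 higher and 1 lower after hypoxia (31.1% and 5.98%), and 0 either way between the treatments (1.20% and 3.98%). After background subtraction 2 were called higher and 1 lower after blood loss (6.35% and 24.6%), 3 higher and 2 lower after hypoxia (5.95% and 30.6%), and 0 either way between the treatments (0.397% and 1.98%). In scaled counts 0 ligands lay higher after hypoxia than in all blood loss samples (2.78%), and 0 lay lower after blood loss than in all normal samples (15.9%). On the deposited scale Cd40 and Cd274 lay higher after hypoxia than in all blood loss samples (32.1%) and 0 lay lower (1.19%). As ratios to Ptprc 0 lay lower than normal after blood loss (3.59%) or after hypoxia (6.37%), and 0 differed either way between the treatments (4.78% higher and 7.17% lower).

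**Figure D3:**
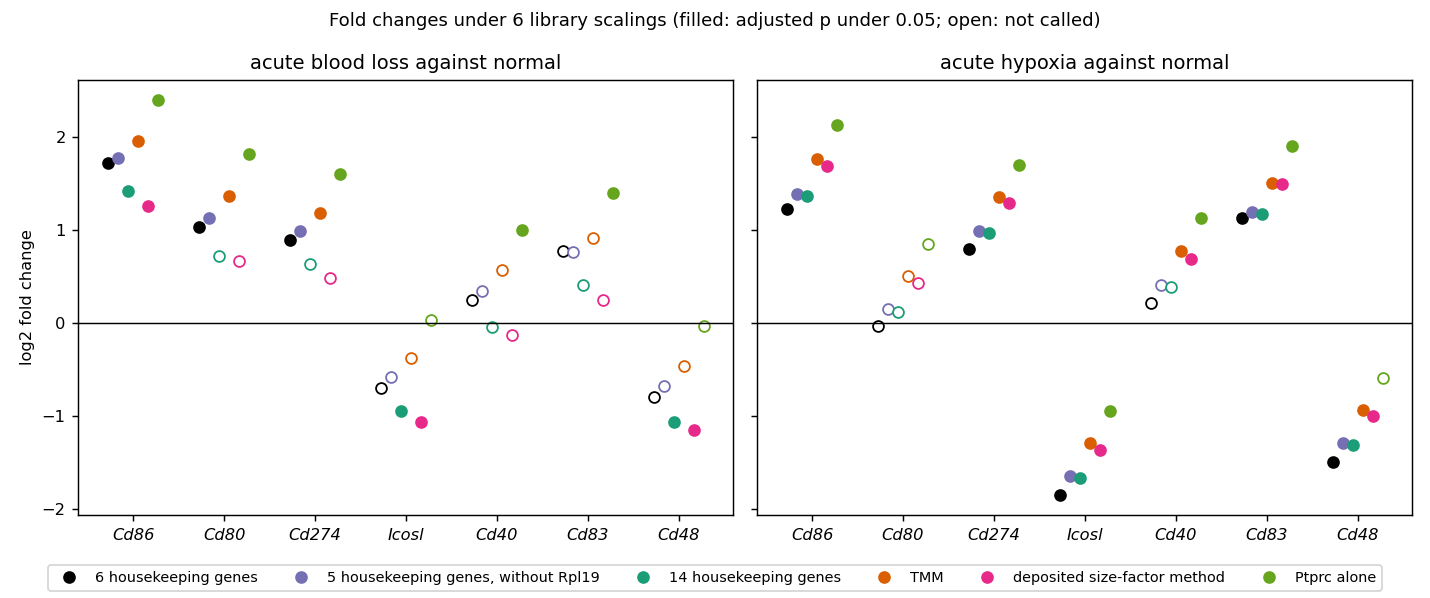
Log2 fold change of each ligand gene against normal under 6 library scalings, for blood loss (left) and hypoxia (right), with filled points called and open points not called. Scalings move all genes together, Cd86 is called higher under each in both comparisons, Icosl is called lower under each after hypoxia, and Cd40 after blood loss lies on either side of 0.

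On the deposited normalized scale, Cd86 ran from 82.4 to 227 in hypoxia samples and from 84.5 to 148 in blood loss samples, against 37.9 to 73.4 in normal samples 1 to 3. Cd274 ran from 274 to 484 and from 193.1 to 263, against 121 to 192.8, so that blood loss and normal samples only just parted. Icosl ran from 35.4 to 67.7 and from 36.2 to 69.7, against 76.4 to 146. The hypoxia and blood loss samples thus covered almost the same range for Icosl on this scale, and both lay below normal. Cd48 likewise ran from 23.6 to 44.5 and from 28.6 to 35.9, against 53.9 to 83.1. On this scale 3 ligands lay above and 2 below all normal samples after hypoxia, against 21.0% and 19.4% of tested genes. After blood loss these numbers were 2 and 2, against 6.35% and 46.0% of tested genes.

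Ratios of raw counts within a sample need no library factor. As a percentage of the Ptprc count, Cd86 averaged 37.2 ± 14.9% in hypoxia and 46.2 ± 18.7% in blood loss samples (SD, n = 4 each), against 8.74 ± 2.99% in normal samples (SD, n = 3). Cd274 averaged 93.3 ± 8.66% and 88.1 ± 13.1%, against 28.6 ± 7.37%. The 2 treated groups overlapped in both genes, and every treated sample lay above every normal one. Relative to Ptprc, 5 ligands (Cd80, Cd86, Cd40, Cd274 and Cd83) lay above all normal samples after hypoxia, as did 37.8% of tested genes. The same 5 did so after blood loss, as did 31.5% of tested genes. Ptprc itself was lower after hypoxia, as given above. Icosl was 8.09 to 15.3% of Ptprc after hypoxia and 14.1 to 29.8% after blood loss, against 12.6 to 27.3% in normal samples, and Cd48 6.59 to 10.2% and 7.73 to 17.0%, against 8.91 to 15.5%. Both overlapped with normal under each treatment.

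**Figure D4:**
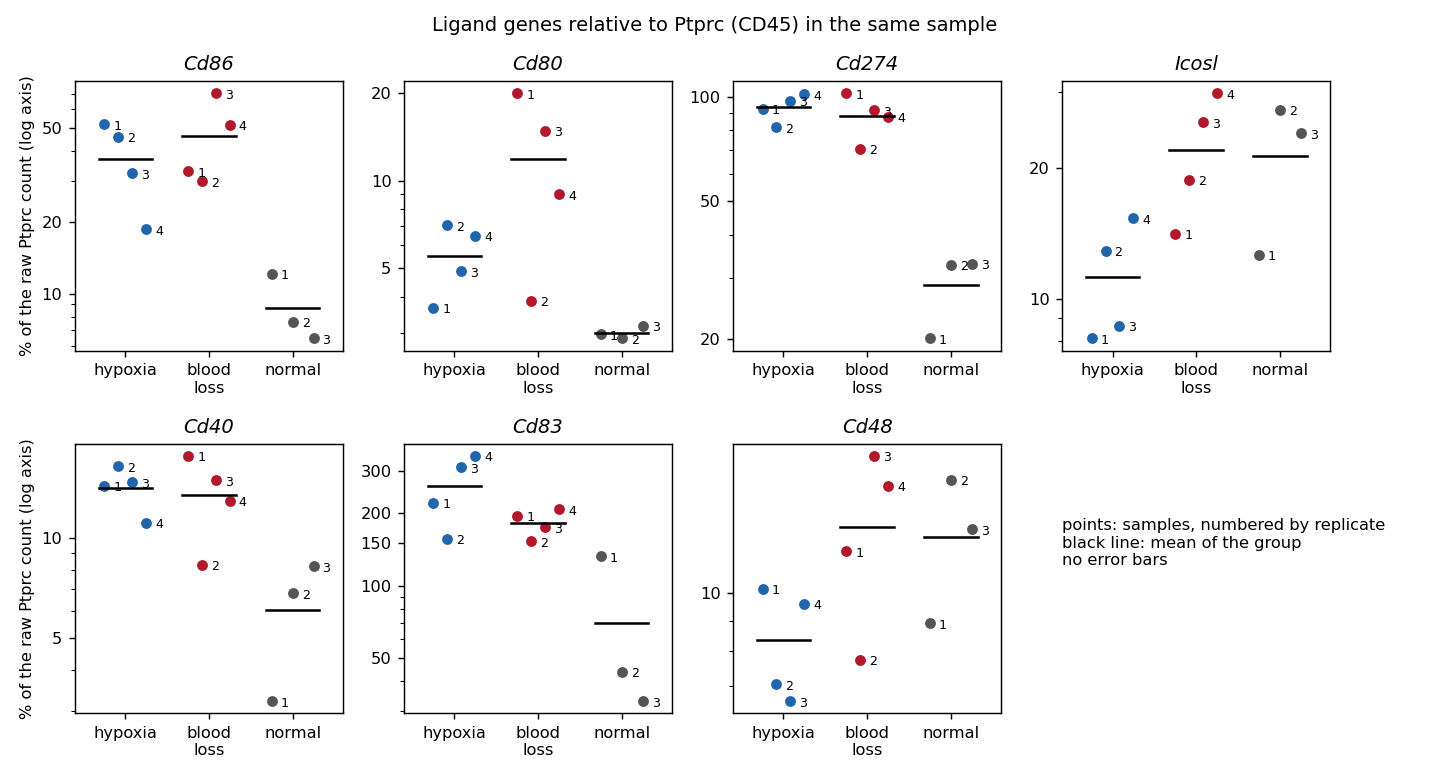
Raw count of each ligand gene as a percentage of the raw Ptprc (CD45) count of the same sample (log axis), in 4 hypoxia, 4 blood loss and 3 normal samples, with the group mean as a black line. Cd86 and Cd274 are several times higher in treated than in normal samples, while Icosl and Cd48 overlap with normal.

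Ratios were also taken for 5 pairs of ligands. The Cd86 to Icosl ratio was 6.42, 3.58, 3.72 and 1.22 after hypoxia and 2.33, 1.59, 2.75 and 1.74 after blood loss, against 0.961, 0.279 and 0.269 in normal samples. The Cd274 to Icosl ratio was 6.33 to 11.4 after hypoxia and 2.94 to 7.25 after blood loss, against 1.20 to 1.59 in normal samples. Every treated sample exceeded every normal sample in both ratios, which pair genes already seen to differ in direction. The Cd83 to Cd48 ratio was 21.7, 22.3, 47.1 and 35.9 after hypoxia and 16.6, 19.7, 10.3 and 13.7 after blood loss, against 14.9, 2.82 and 2.58 in normal samples. For this pair the hypoxia samples lay above all normal samples, and the blood loss samples overlapped with normal 1. The Icosl to Cd48 ratio, by contrast, overlapped between all groups, at 0.795 to 1.83 after hypoxia, 1.20 to 2.43 after blood loss and 1.42 to 1.88 in normal samples. The Cd86 to Cd80 ratio also overlapped, at 2.89 to 14.2, 1.65 to 7.71 and 2.04 to 4.08 in the same order.

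Likeness between genes was measured as the mean absolute difference of centred log2 (scaled count + 1) over the 11 samples, which share their library factors. Icosl and Cd48 differed by 0.31 on this log2 scale, and Cd40 and Cd274 by 0.25. Cd86 and Icosl differed by 1.09, and Cd83 and Icosl by 1.10. The median difference from the tested genes was 0.66 for Cd80, 0.86 for Cd86, 0.63 for Cd274 and 0.70 for Icosl. It was 0.55 for Cd40, 0.81 for Cd83 and 0.55 for Cd48. By rank Icosl was number 13 for Cd48, and Cd48 number 5 for Icosl. The 2 genes most like Cd86 were Cd36, a scavenger receptor also in the erythroid list (0.33), and Irak2, a kinase of Toll-like receptor signalling (0.35). Those most like Cd40 were Nfkb1 (0.20) and Rela (0.22), subunits of NF-kappaB. Those most like Cd274 were Cd97, an adhesion receptor (0.24), and Cd40. Those most like Icosl were Ciita, the class II transactivator (0.24), and Pou2f2, a transcription factor of B cells (0.28). Those most like Cd48 were Fcgr2b, the inhibitory Fc receptor (0.20), and Ddx58, the RNA sensor RIG-I (0.20). Cd80 came closest to the kinase gene Mapk14 (0.30) and the complement gene C3 (0.30), and Cd83 to B2m, the light chain of MHC class I (0.37), and H2-Ea-ps (0.38).

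Of the receptors to which the 7 ligands bind, 7 were on the panel and 4 passed the filter for testing. After hypoxia 0 of the 4 were called in either direction (edgeR), against 7.54% higher and 32.9% lower among all tested genes. At an unadjusted p under 0.05 (edgeR) were 0 of the 4, against 128 of the 252 tested genes in either direction. Cd28, the receptor of CD80 and CD86, was called higher after blood loss, at 29.9 ± 10.1 against 12.0 ± 5.60 in normal samples (log2 fold change 1.27, edgeR adjusted p = 0.0208), though its raw count reached 20 in only 1 blood loss sample. Its raw counts there were 5, 12, 5 and 26. Of 9 tested T and NK cell markers it was the 1 called higher after blood loss, and 6 were called lower, against 9.92% and 17.1% of all tested genes. It was lower after hypoxia, at 9.79 ± 2.33, than after blood loss (-1.60, edgeR adjusted p = 0.0118). Ctla4, the inhibitory receptor of the same ligands, averaged 48.9 ± 13.0 after hypoxia and 103 ± 47.4 after blood loss, against 65.1 ± 35.6 in normal samples, and was not called. Icos and Cd2 were not called in any comparison. Pdcd1, the receptor of PD-L1, had a highest raw count of 19 in any sample, Cd40lg 77 and Cd244 51, and none of these passed the filter. Of 3 measured SLAM family genes and adaptors 2 were tested (Slamf7 and Sh2d1a), and neither was called. Of 6 measured other ligands and receptors of this kind 2 were tested. Btla, an inhibitory receptor of lymphocytes, fell after hypoxia (80.0 ± 4.64 against 162.6 ± 48.9 in normal samples; log2 fold change -1.03, edgeR adjusted p = 0.00848), and its partner Tnfrsf14 was not called. Btla was also lower after hypoxia than after blood loss (188 ± 84.0; log2 fold change -1.21, edgeR adjusted p = 0.0118).

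Downstream of CD40, 14 of 16 measured genes were tested. After blood loss 1 rose and 1 fell (7.14% each), against 9.92% and 17.1% of all tested genes. After hypoxia 0 rose and 1 fell (7.14%), against 7.54% and 32.9%. With 14 tested genes 1 call makes 7.14%, so the shares of higher calls were close to those of all tested genes. The share of lower calls after hypoxia stood furthest below. Nfkbia, the NF-kappaB inhibitor that NF-kappaB itself induces, rose after blood loss (326 ± 60.0 against 163 ± 60.5 in normal samples; log2 fold change 0.97, edgeR adjusted p = 0.0208). Between the treatments it was lower after hypoxia (149 ± 38.5 against 326 ± 60.0 after blood loss; log2 fold change -1.11, edgeR adjusted p = 0.0120). Traf5, an adaptor of CD40, was lower after blood loss (log2 fold change -1.08, edgeR adjusted p = 0.0442), and the kinase gene Ikbke was lower after hypoxia (-1.37, edgeR adjusted p = 0.00174). The list medians, 0.09 after blood loss and 0.03 after hypoxia, stood above those of all tested genes, -0.24 and -0.49.

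Interferon-gamma is a known inducer of Cd274, and 8 of 10 genes of its pathway were tested. After blood loss 4 fell and 1 rose, against 17.1% and 9.92% of all tested genes. Those that fell included Irf8 (log2 fold change -1.24), Ifngr1 (-0.96) and Irf1 (-0.83), and Jak2 rose (0.81, edgeR adjusted p = 0.0479). After hypoxia 3 fell and 0 rose, against 32.9% and 7.54% of all tested genes. The lower share of the list, 37.5%, is thus close to that of all tested genes. Those that fell after hypoxia included Jak1 (-0.82, edgeR adjusted p = 0.0124) and the receptor gene Ifngr1 (-0.71, edgeR adjusted p = 0.0443). Irf1 differed between the treatments, at 316 ± 72.7 after hypoxia against 122 ± 40.7 after blood loss (log2 fold change 1.39, edgeR adjusted p = 0.00565). List medians were -0.90 after blood loss and -0.59 after hypoxia, against -0.24 and -0.49 over all tested genes.

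MHC class II presentation supplies the antigen signal that costimulation accompanies. Of 9 measured genes with a part in that process, edgeR called 5 lower after hypoxia, where 32.9% of all tested genes were. After blood loss 4 were called lower, where 17.1% of all tested genes were. In the higher direction 0 were called by edgeR, and 1, Cd74 after blood loss, had an unadjusted p under 0.05. At that threshold, in either direction, were 6 of the 9 and 103 of the 252 tested genes after blood loss. The list did not move as a whole. Cd74, the invariant chain, had scaled counts of 3945 to 5434 after hypoxia and 3697 to 6203 after blood loss, against 4723, 669 and 612 in normal samples 1 to 3 (log2 fold changes 1.21 and 1.34, edgeR adjusted p = 0.120 and 0.117). H2-Aa, a class II alpha chain, stood at 3903 to 5010.2 and 3003 to 5658, against 4659, 679 and 592 (1.15 and 0.97, edgeR adjusted p = 0.131 and 0.238). Normal 1 lay inside the treated groups in both genes, and normal 2 and normal 3 lay far below every treated sample. H2-Ab1, a class II beta chain, was called lower after both treatments, at 139 to 158 after hypoxia and 83.0 to 137 after blood loss, against 1527, 197 and 161 in normal samples 1 to 3, so normal 1 carries most of the size of that difference. The summed level of the 9 genes ran from 9577 to 11957 after hypoxia and from 8191 to 13635 after blood loss, against 13094, 5087 and 4099.8 in normal samples. Ciita, the gene most like Icosl, fell after hypoxia (36.5 ± 14.4 against 82.8 ± 34.95 in normal samples; log2 fold change -1.19, edgeR adjusted p = 0.00651). H2-Ob and Ctss fell after both treatments, with log2 fold changes of -1.42 and -1.48 after blood loss and -2.19 and -1.06 after hypoxia.

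**Figure D5:**
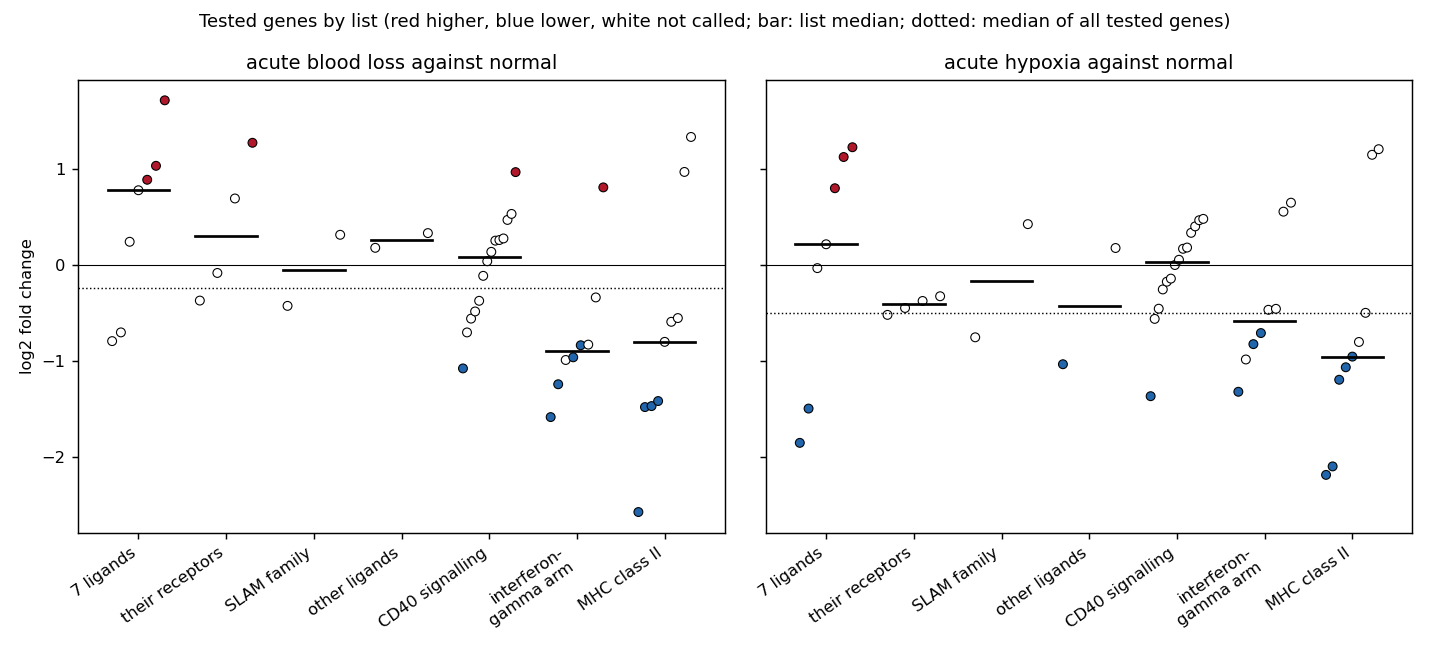
Log2 fold changes of all tested genes of the 7 ligands and 6 related lists, after blood loss (left) and hypoxia (right) against normal, with the list median as a bar and the median of 252 tested genes as a dotted line. Called genes are red (higher) or blue (lower). The ligands hold red points in both panels, and Icosl and Cd48 are blue after hypoxia. After blood loss Cd28, Nfkbia and Jak2 of the other lists are red. The interferon-gamma and class II lists hold mostly blue points among those called, while Cd74 and H2-Aa stand above 0 and were not called.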

How the data were processed

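The authors deposited raw nCounter counts, whole numbers from 1, for 561 genes in 12 columns, per the file headers. A second deposited table holds a normalized signal: each raw count divided by 1 factor per sample, as the values show. The deposited log2 table equals log2 of that signal plus 1, within rounding. Software, background handling and size-factor method were not given in the sources used here. Samples were grouped by condition in their titles.

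The Normal 4 column was left out: in all 561 genes its raw count is the median of Normal 1 to 3 plus 3. The other 11 samples were fitted together with edgeR 4.0.16 (quasi-likelihood, robust; R 4.3.3), and the model held the 3 groups and no covariate. Each sample was scaled by a geometric mean over 6 of the 14 housekeeping genes, those whose raw counts averaged 100 or higher: Rpl19, Ppia, Polr2a, Oaz1, Gapdh and Eef1g. The filter (raw count 20, in 4 samples or more) left 252 of 547 other genes for testing. Standard errors and 95% intervals were derived from the fold change and test statistic. The script was tested on simulated data. Poisson intervals cover counting error only. Total counts per sample, 7016 to 253712, set the precision, which was lowest after blood loss.

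The members and gene lists were chosen with earlier results of these data known. The text names further list genes where a count or a contrast needs them, chosen after their values were seen. They are Jak2, Pdcd1, Cd40lg, Cd244, Cd74, H2-Aa, Ccr7, S100a8, S100a9, Cxcr2 and 4 erythroid markers. By rule the text names all 7 members and the 2 genes most like each member. It also names up to 4 genes per list and comparison with the smallest adjusted p. One gene that this rule selects is not reported here. Alternatives were 5 other scalings, DESeq2 1.42.0, other filters, background subtraction, 12 samples, 2 groups only, leaving out each sample, and a replicate block.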

Additional observations from a re-analysis of the deposited data

How the results depend on the processing

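Of 483 values of single ligands under the alternatives, 396 kept direction and side of the threshold, 40 lost a call, 18 gained one and 29 changed sign. After blood loss, ligands called higher numbered 1 with the deposited size-factor method, 1 with 14 housekeeping genes and 5 with Ptprc as factor, against 3 as reported. Ligands called lower numbered 2, 2 and, with 12 samples or with background subtracted, 1, against 0. After hypoxia, 1 was called lower with Ptprc as factor, against 2. Between hypoxia and blood loss, 3 were called higher with the deposited method, against 0. Lower calls there numbered 0 with each of the 5 other scalings and with background subtracted, and 2 with no filter and with DESeq2, against 1. Leaving out 1 sample gave 1 to 3 higher and 0 to 2 lower calls after blood loss, 1 to 3 higher and 2 lower after hypoxia, and 0 higher and 0 to 2 lower between the treatments. For the fits with 12 samples, no filter, DESeq2 or 1 sample left out, the share of all tested genes called is not given here. Changes in those counts are thus not read as particular to the ligands.

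Sign changes, none of a value called in the report, were as follows in log2 fold change. Cd80 after hypoxia was 0.51 (TMM), 0.43 (deposited method), 0.12 (14 housekeeping genes), 0.15 (without Rpl19) and 0.86 (Ptprc), and -0.19 to 0.14 leaving out 1 sample. Cd40 between hypoxia and blood loss was 0.21, 0.82, 0.43, 0.0617 and 0.13 under the same scalings, 0.17 with background subtracted and -0.17 to 0.0504 leaving out 1 sample. Cd274 there was 0.16 (TMM), 0.80 (deposited method), 0.34 (14 housekeeping genes) and 0.0927 (Ptprc), and -0.20 to 0.0124 leaving out 1 sample. With the deposited method Cd86 there was 0.43 and Cd48 0.15. Cd40 after blood loss was -0.13 (deposited method) and -0.0476 (14 housekeeping genes), and -0.0376 to 0.49 leaving out 1 sample, and after hypoxia -0.0557 to 0.45. Icosl after blood loss was 0.0305 with Ptprc. The cause was not tested.

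Replicate numbers did not pair the samples: deviations of 10 same-numbered pairs correlated at -0.25 to 0.13, and 2 of 11 samples correlated best with their own number. With a replicate block, ligands called higher numbered 2 after blood loss and 2 after hypoxia, and those called lower 0 and 2. Cd80 after blood loss (1.05, edgeR adjusted p = 0.0773) and Cd83 after hypoxia (1.10, edgeR adjusted p = 0.0538) were no longer called. The share of all tested genes called with the block is not given here, so these losses are not read as particular to the ligands. Depth limits Cd80, Cd40, Icosl and Cd48 most after blood loss, where 0, 1, 2 and 1 of 4 samples reached a raw count of 20.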
